A study of Mus musculus with 72 samples.

Results

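This report describes 10 genes of the ATF4 branch of the integrated stress response in mouse liver: Atf4, Atf5, Atf3, Ddit3, Trib3, Asns, Chac1, Sesn2, Ppp1r15a and Nupr1. They were taken from a count table of 51912 genes by matching the table's Ensembl identifiers to gene symbols in the GENCODE M21 annotation, and all 10 were found. Of these, 9 were among the 12712 genes that passed the filter on low counts, and Atf3 was not. Messenger RNA was counted by 3′ sequencing in 72 liver libraries, with 3 libraries at each of 6 times of day in each of 4 feeding paradigms. Time is zeitgeber time (ZT), counted in hours from the start of the light phase. The paradigms were incompletely adapted arrhythmic feeding, in which the animals had not fully adapted to the schedule per the labels, then arrhythmic feeding, night-restricted feeding and ad libitum feeding. All animals were wild-type male C57BL/6J mice, 43 to 49 days old at the start, kept with 12 h of light and 12 h of dark and free access to water. The sources used here do not give the feeding hours, the length of each schedule, the age at sampling or whether the 3 replicates were separate animals. The p-values therefore cover the spread between the samples at hand, which may be partly technical. The study weighs meal timing against the liver's own clock, and the question for these 10 genes is whether their course over the day and their daily mean differ between the paradigms.

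The integrated stress response starts when kinases that sense amino acid shortage, unfolded protein in the endoplasmic reticulum (ER), heme shortage or viral RNA phosphorylate the translation factor eIF2α. General translation then falls, while the mRNA of the transcription factor ATF4 is translated better, so that ATF4 protein is set largely by translation and the Atf4 mRNA level is only part of its control. ATF4 binds composite elements in gene promoters and activates genes for amino acid supply, redox balance and feedback on eIF2α, and liver receives changing amounts of amino acids as meals come and go.

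Total counts per library ran from 6017962 to 7972905 under incompletely adapted arrhythmic feeding, from 5628818 to 7806974 under arrhythmic feeding, from 4342026 to 12286021 under night-restricted feeding and from 6701379 to 11167161 under ad libitum feeding. Depth behind the genes differed widely: the median number of reads per library was 4316.5 for Atf5 and 2126 for Atf4, 176 for Ddit3, 64 for Trib3, 43 for Ppp1r15a, 27 for Sesn2, 13.5 for Chac1, 12 for Nupr1, 6 for Asns and 2 for Atf3. The libraries were of liver by their markers. The summed level of 6 hepatocyte genes ran from 20214 to 37069 CPM (read counts scaled to the library total) over the 72 libraries. Other cell types were present too: erythroid markers together ran from 738 to 3927 CPM and Kupffer cell and macrophage markers from 201 to 1372 CPM. Neutrophil markers reached at most 95.5 CPM, under ad libitum feeding, and T and NK cell markers at most 4.15 CPM. Libraries also differed in how expression followed base composition. The GC slope is the log2 deviation of genes in a library per 10 points of GC in the last 300 bases of the transcript. An alternative fit left out 5 libraries of extreme slope. They were night-restricted replicate 1 at ZT22 (0.461), ZT02 (0.400), ZT06 (0.400) and ZT18 (0.297) and incompletely adapted replicate 1 at ZT10 (-0.353). Incompletely adapted replicate 1 at ZT14 (-0.304) had a slightly stronger slope than the ZT18 library and was not among these 5. Calls that end without these 5 libraries are named beside the result or, for mean levels against night-restricted feeding, in a paragraph of their own.

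The promoters of the 10 genes are shown first where they hold the letters of the element that ATF4 binds. The composite C/EBP-ATF response element was searched as TGATGNAA on both strands in the 250 bases before each transcription start in RefSeq promoters of GRCm38.p6. It was found in 4 of the 10 genes, Atf3, Asns, Chac1 and Nupr1, once each. That is 4 of their 11 windows, against 3.45 percent of all 32851 promoter windows. The sequences are on the gene's strand, 5′ to 3′, with the matching letters in capitals. Atf3 (chr1:191183410-191183469, minus strand, letters at -110 to -103), Chac1 (chr2:119351023-119351082, plus strand, -193 to -186) and Nupr1 (chr7:126625547-126625606, minus strand, -110 to -103) held the reverse complement of the element. Asns (chr6:7693210-7693258, minus strand, -23 to -16) held it in the forward direction. RefSeq and GENCODE starts differ: the letters of Atf3, Asns and Nupr1 lie inside the GENCODE gene spans given below, and those of Chac1 lie outside.
Atf3: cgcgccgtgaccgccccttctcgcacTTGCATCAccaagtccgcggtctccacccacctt
Asns: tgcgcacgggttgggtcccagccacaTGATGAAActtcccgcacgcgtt
Chac1: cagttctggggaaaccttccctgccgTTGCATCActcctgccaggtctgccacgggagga
Nupr1: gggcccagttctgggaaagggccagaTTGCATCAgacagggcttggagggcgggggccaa
The letters were not found in these windows of Atf4, Atf5, Ddit3, Trib3, Sesn2 and Ppp1r15a, which says nothing about binding elsewhere.

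Across the day, the genes moved most under night-restricted feeding. A gene was called rhythmic when the cosine and sine terms of a 24 h period passed edgeR's quasi-likelihood F test at a false discovery rate of 0.05 over all genes tested. Under incompletely adapted arrhythmic feeding 1 of the 9 genes was rhythmic (Atf5), where 3.63 percent of all genes were called. Under arrhythmic feeding it was also 1 of 9 (Trib3), against 3.37 percent of all genes. Under night-restricted feeding 7 of 9 were rhythmic, all but Ddit3 and Ppp1r15a, against 29.9 percent of all genes. Under ad libitum feeding it was 3 of 9 (Atf4, Atf5 and Trib3), against 7.48 percent of all genes. The median fitted range, from trough to peak in log2 units, was 0.75 over the 9 genes under incompletely adapted arrhythmic feeding and 0.42 over all genes, 0.73 and 0.43 under arrhythmic, 1.61 and 0.70 under night-restricted, and 0.88 and 0.52 under ad libitum feeding. A fitted range cannot be below 0, so noise alone gives a value above it.

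**Figure D1:**
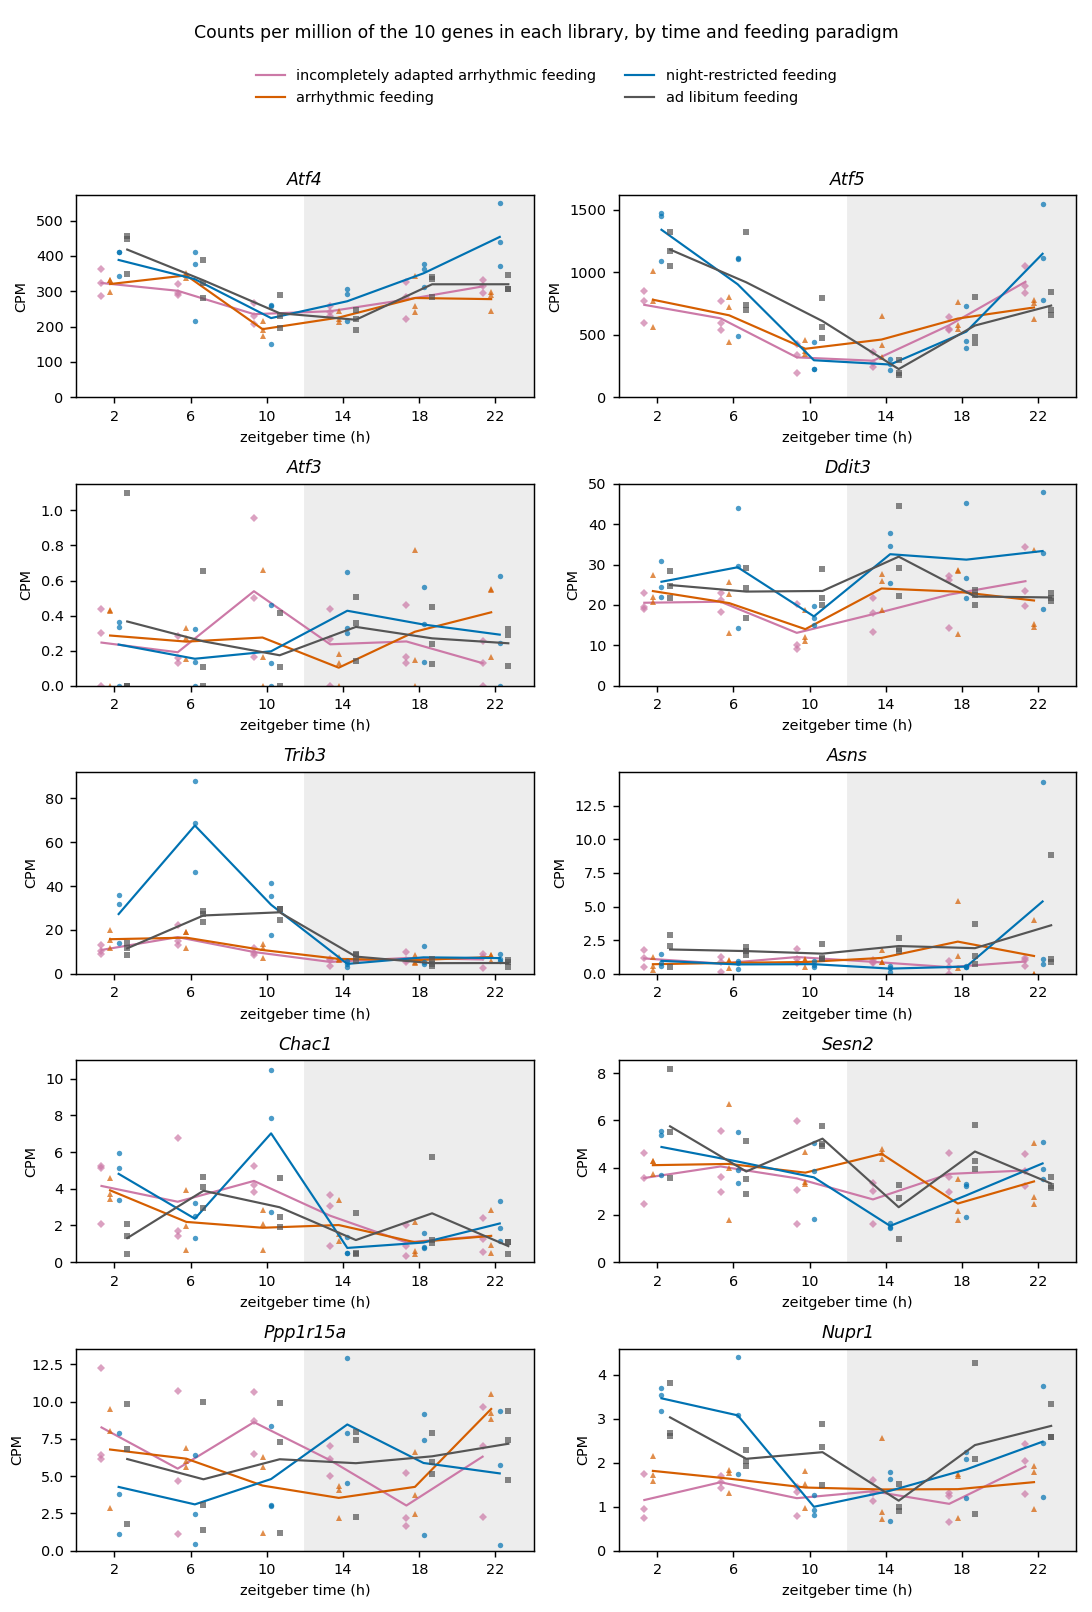
Level of the 10 genes in CPM (linear axes that start at 0) against zeitgeber time in hours, with the dark phase shaded. Points are single libraries, lines join the means of 3 libraries, and the paradigms are shifted slightly along the time axis. Trib3 under night-restricted feeding stood at 87.7, 68.8 and 46.4 CPM at ZT06, the hour of its highest mean there, above every library of both arrhythmic paradigms. The late peak of Asns under night-restricted feeding is 1 library at 14.3 CPM.

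The pair of transcription factors with the deepest counts was Atf4 and Atf5. Atf4 (ENSMUSG00000042406.7, GRCm38 chromosome 15, 80255184 to 80257541, plus strand) encodes the factor that the branch is named for. Its level under arrhythmic feeding was 216, 173 and 189 CPM at ZT10 and 299, 290 and 244 CPM at ZT22. Under night-restricted feeding it was 151, 263 and 259 CPM at ZT10 and 551, 372 and 439 CPM at ZT22. The 2 hours did not overlap in either paradigm, and at ZT22 all 3 night-restricted libraries were above the arrhythmic ones. ZT10 and ZT22 held the lowest and highest mean of Atf4 under night-restricted feeding, so their choice favoured a separation there. The fitted log2 range of Atf4 was 0.47 ± 0.19 (SE) under incompletely adapted arrhythmic feeding, 0.40 ± 0.19 under arrhythmic, 1.04 ± 0.19 under night-restricted and 0.79 ± 0.19 under ad libitum feeding. It was called in the last 2 of these, with peaks at ZT 23.3 ± 0.71 h under night-restricted (edgeR adjusted p = 0.000194) and ZT 1.2 ± 0.93 h under ad libitum feeding (edgeR adjusted p = 0.0152). With time as a factor of 6 levels the ad libitum call ended (adjusted p = 0.0558).

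Atf5 (ENSMUSG00000038539.15, chromosome 7, 44812256 to 44816658, minus strand) encodes a related leucine zipper factor that is likewise controlled by translation and is known from mitochondrial stress. At ZT02 it stood at 597, 852 and 769 CPM under incompletely adapted arrhythmic feeding and at 563, 769 and 1010 CPM under arrhythmic feeding. In the same hour it reached 1454, 1091 and 1478 CPM under night-restricted feeding and 1168, 1053 and 1327 CPM under ad libitum feeding. At ZT02 every library of the night-restricted and ad libitum paradigms was thus above every library of the 2 arrhythmic paradigms. ZT02 and ZT14 held the highest and lowest mean of Atf5 under night-restricted and under ad libitum feeding, so their choice favoured such gaps. At ZT14 the order was turned round between arrhythmic and night-restricted feeding: Atf5 had 322, 647 and 415 CPM under arrhythmic feeding, against 303, 217 and 265 CPM under night-restricted feeding. It ran from 240 to 362 CPM under incompletely adapted arrhythmic and from 177 to 302 CPM under ad libitum feeding. Both of these overlapped the night-restricted libraries. The fitted range was 1.66 ± 0.30 under incompletely adapted arrhythmic, 0.73 ± 0.30 under arrhythmic, 2.72 ± 0.30 under night-restricted and 1.81 ± 0.30 under ad libitum feeding. It was called in every paradigm but the arrhythmic one, where the adjusted p was 0.426 and the call appears once the GC slope is a covariate (edgeR adjusted p = 0.0263). Peaks lay at ZT 23.9 ± 0.70 h under incompletely adapted arrhythmic, ZT 0.95 ± 0.43 h under night-restricted and ZT 2.6 ± 0.64 h under ad libitum feeding.

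Trib3 (ENSMUSG00000032715.9, chromosome 2, 152337422 to 152344032, minus strand) encodes a pseudokinase that binds ATF4 and AKT and is induced both by stress and by fasting in liver. Its course had the widest range of the 9 genes under night-restricted and under ad libitum feeding, with a peak in the light phase. At ZT06 it stood at 15.0, 13.1 and 22.1 CPM under incompletely adapted arrhythmic feeding, at 11.8, 18.9 and 18.9 CPM under arrhythmic feeding, at 87.7, 68.8 and 46.4 CPM under night-restricted feeding and at 28.8, 27.4 and 23.7 CPM under ad libitum feeding. The 3 night-restricted libraries were above all others at that hour, and the ad libitum libraries were above both arrhythmic paradigms. ZT06 and ZT14 held the highest and lowest mean of Trib3 under night-restricted feeding, so their choice favoured a separation there. At ZT14 the level was 3.36, 6.56 and 6.397 CPM under incompletely adapted arrhythmic, 6.67, 6.15 and 7.64 CPM under arrhythmic, 5.70, 3.29 and 4.64 CPM under night-restricted and 8.86, 6.04 and 8.69 CPM under ad libitum feeding. The fitted range was 1.27 ± 0.37 under incompletely adapted arrhythmic, 1.42 ± 0.37 under arrhythmic, 3.62 ± 0.36 under night-restricted and 2.95 ± 0.37 under ad libitum feeding.

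Trib3 peaked at ZT 5.3 ± 1.1 h, ZT 5.4 ± 0.98 h and ZT 5.7 ± 0.38 h under incompletely adapted arrhythmic, arrhythmic and night-restricted feeding, and at ZT 7.6 ± 0.47 h under ad libitum feeding. Under night-restricted feeding the fitted peak of Atf4 was at ZT 23.3 and that of Atf5 at ZT 0.95, and the differences in peak time between genes were not tested. Its call under arrhythmic feeding was at the edge (edgeR adjusted p = 0.0353): it ended with time as a factor of 6 levels (adjusted p = 0.177), without the filter on low counts (adjusted p = 0.0577) and in 7 of the 18 fits that left out 1 arrhythmic library, in which the adjusted p reached 0.0874. Those 7 libraries were replicate 1 at ZT14, replicate 2 at ZT02, ZT06, ZT14 and ZT18, and replicate 3 at ZT06 and ZT18. Under incompletely adapted arrhythmic feeding Trib3 missed the threshold (adjusted p = 0.066), and it passed once the GC slope was a covariate (adjusted p = 0.00229), in DESeq2 (adjusted p = 0.0312) and without replicate 1 at ZT18 (adjusted p = 0.0236).

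Of the stress-induced transcription factors, Ddit3 (ENSMUSG00000025408.15, chromosome 10, 127290774 to 127296288, plus strand), which encodes CHOP, was not called rhythmic in any paradigm. Its fitted ranges were 0.81 ± 0.33 under incompletely adapted arrhythmic, 0.44 ± 0.33 under arrhythmic, 0.63 ± 0.32 under night-restricted and 0.30 ± 0.32 under ad libitum feeding. Once the GC slope was a covariate, its range under night-restricted feeding was 0.77 and passed (edgeR adjusted p = 0.0485). Its lowest, median and highest libraries were 9.09, 19.96 and 34.3 CPM under incompletely adapted arrhythmic, 11.1, 21.4 and 33.5 CPM under arrhythmic, 14.2, 26.1 and 48.1 CPM under night-restricted and 16.7, 22.8 and 44.6 CPM under ad libitum feeding. The 3′ end of Ddit3 lies 67 bases from that of Mars on the opposite strand, with 68 bases of overlap. Mars, a tRNA synthetase gene, had a median of 638 reads, and since the strand setting of the counting is not given, reads at that end cannot be assigned with certainty. Atf3 (ENSMUSG00000026628.13, chromosome 1, 191170296 to 191218039, minus strand), a factor induced by many stresses, gave 144 reads over all 72 libraries and at most 9 in any. It had none in 15 libraries, where a count of 0 allows up to 0.630 CPM, taken as 3 reads of the total. Fitted without the filter, none of its 16 tests passed in edgeR, with adjusted p of at least 0.635 and 0 tests at an unadjusted p under 0.05.

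Nupr1 (ENSMUSG00000030717.9, chromosome 7, 126623249 to 126630861, minus strand), a small chromatin-associated stress protein, was at a low count. Under arrhythmic feeding it was at 1.57, 1.71 and 2.16 CPM at ZT02 and at 1.82, 1.52 and 0.968 CPM at ZT10, and these hours overlapped. Under night-restricted feeding it was at 3.70, 3.17 and 3.54 CPM at ZT02 and at 0.921, 1.26 and 0.806 CPM at ZT10, with no overlap. These hours held its highest and lowest mean under night-restricted feeding, so their choice favoured a separation there. The fitted range was 0.32 ± 0.41 under incompletely adapted arrhythmic, 0.13 ± 0.40 under arrhythmic, 1.61 ± 0.38 under night-restricted and 0.93 ± 0.36 under ad libitum feeding, and it was called under night-restricted feeding with a peak at ZT 1.5 ± 0.91 h (edgeR adjusted p = 0.00302).

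Among the effectors, Sesn2 (ENSMUSG00000028893.8, chromosome 4, 132492032 to 132510501, minus strand), a leucine sensor that restrains mTORC1, had 4.35, 4.61 and 4.797 CPM at ZT14 under arrhythmic feeding, against 1.47, 1.64 and 1.49 CPM under night-restricted feeding. ZT14 held its lowest mean under night-restricted feeding and its highest under arrhythmic feeding. At that hour the libraries ran from 1.61 to 3.35 CPM under incompletely adapted arrhythmic and from 0.985 to 3.27 CPM under ad libitum feeding. The range of Sesn2 was 0.30 ± 0.35, 0.52 ± 0.35, 1.39 ± 0.36 and 0.54 ± 0.34 in the order of incompletely adapted arrhythmic, arrhythmic, night-restricted and ad libitum feeding, and it was called under night-restricted feeding (edgeR adjusted p = 0.00973, peak ZT 2.6 ± 0.99 h). Chac1 (ENSMUSG00000027313.3, chromosome 2, 119351229 to 119354381, plus strand), an enzyme that breaks down glutathione, rested on few reads. Under night-restricted feeding it was at 7.83, 10.5 and 2.74 CPM at ZT10 and at 0.488, 1.35 and 0.497 CPM at ZT14. Its means there were 4.81 CPM at ZT02, 2.37 CPM at ZT06 and 7.02 CPM at ZT10. The fitted 24 h cosine cannot follow the dip at ZT06, which lies next to the fitted peak. The ranges of Chac1 were 1.80 ± 0.66, 1.04 ± 0.68, 2.49 ± 0.67 and 1.32 ± 0.65 in the same order of paradigms, with a call under night-restricted feeding (edgeR adjusted p = 0.0211, peak ZT 5.7 ± 0.99 h). That call ended in the fit of the night-restricted libraries alone (adjusted p = 0.0571) and without night-restricted replicate 2 at ZT18 (adjusted p = 0.056).

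Asns (ENSMUSG00000029752.12, chromosome 6, 7675169 to 7693254, minus strand), asparagine synthetase and a standard ATF4 target, stayed low with single libraries far above the rest. All 18 libraries of incompletely adapted arrhythmic feeding stayed between 0 and 1.83 CPM. Under arrhythmic feeding it had 0.438, 1.33 and 5.43 CPM at ZT18, and at ZT22 3.99 CPM in 1 library and no read in the other 2. At ZT22 it had 0.754, 1.11 and 14.3 CPM under night-restricted feeding, the last from 114 reads, and 8.85, 1.12 and 0.865 CPM under ad libitum feeding. Asns was called rhythmic under night-restricted feeding with a range of 3.21 ± 0.88 (edgeR adjusted p = 0.00282). Without night-restricted replicate 3 at ZT22 the range was 1.15 and the call ended (adjusted p = 0.451), so it rested on that library.

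Ppp1r15a (ENSMUSG00000040435.12, chromosome 7, 45522916 to 45526268, minus strand) encodes GADD34, which brings phosphatase to eIF2α and so ends the response. It was not called rhythmic in any paradigm, with ranges of 0.75 ± 0.54 under incompletely adapted arrhythmic, 1.06 ± 0.55 under arrhythmic, 1.04 ± 0.56 under night-restricted and 0.37 ± 0.53 under ad libitum feeding. Its spread between replicates was wide: at ZT22 under night-restricted feeding it had 0.377, 5.77 and 9.40 CPM. In that paradigm replicate 1 was the lowest at every hour, with 1.13, 0.420, 2.99, 4.56, 1.05 and 0.377 CPM from ZT02 to ZT22. Across the 72 libraries the deviations of Ppp1r15a from its group means went against the GC slope, with Pearson r = -0.86. This value is a description of these libraries, which may not be independent of one another. For the other genes r was 0.64 for Ddit3, 0.62 for Atf5, 0.60 for Atf4, 0.60 for Trib3, 0.48 for Nupr1, 0.22 for Sesn2, 0.22 for Chac1 and -0.03 for Asns. The 3′ end of Ppp1r15a lies within Tulp2, a gene of the opposite strand with a median of 1 read.

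**Figure D2:**
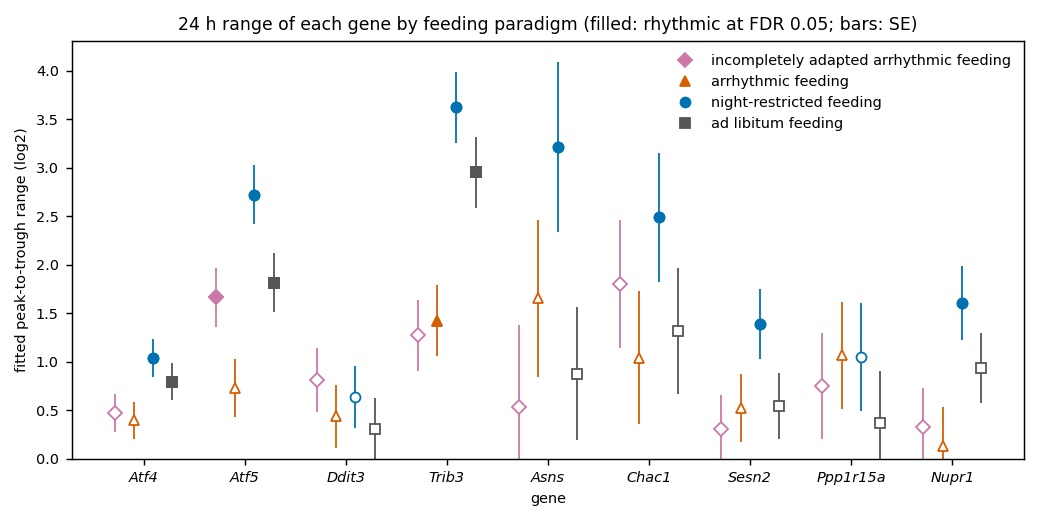
Fitted 24 h range (log2, peak to trough) of the 9 tested genes in each paradigm. Points are estimates, bars are standard errors and filled points passed the false discovery rate of 0.05. Night-restricted feeding holds 7 filled points and the highest estimate for 7 of the 9 genes, with Trib3 at 3.62, and the exceptions are Ddit3 and Ppp1r15a.

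The rhythm itself was compared between paradigms by the F test that both time terms were equal, with p adjusted over all genes. Each such p covers range and peak time together and is not a test of the range difference alone. Between incompletely adapted arrhythmic and night-restricted feeding 1 of 9 genes differed, Trib3, against 0.614 percent of all genes, and between arrhythmic and night-restricted feeding 2 of 9 differed, Atf5 and Trib3, against 3.89 percent of all genes. The range of Trib3 was smaller by -2.35 ± 0.52 under incompletely adapted arrhythmic than under night-restricted feeding (edgeR adjusted p = 0.0205). This call ended without night-restricted replicate 1 at ZT06 (difference -2.07, adjusted p = 0.0669), without incompletely adapted replicate 1 at ZT18 (-2.09, adjusted p = 0.0692), with time as a factor (adjusted p = 0.11) and in a fit of these 2 paradigms alone (adjusted p = 0.179). For arrhythmic against night-restricted feeding the range difference was -1.99 ± 0.43 for Atf5 and -2.20 ± 0.52 for Trib3. With time as a factor of 6 levels the Atf5 call ended (adjusted p = 0.0856). The Trib3 call ended in a fit of the 2 paradigms alone (adjusted p = 0.0537) and, just past the threshold, without arrhythmic replicate 1 at ZT18 (-1.99, adjusted p = 0.0511) or night-restricted replicate 1 at ZT06 (-1.91, adjusted p = 0.0509). These 2 comparisons share the night-restricted libraries.

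The range was smaller than under night-restricted feeding in 8 of 9 genes under either arrhythmic paradigm, where 76.2 percent of all genes had a smaller range under incompletely adapted arrhythmic and 72.5 percent under arrhythmic feeding. The median difference over the 9 genes was -1.06 and over all genes -0.26 for incompletely adapted arrhythmic feeding, and -1.45 and -0.25 for arrhythmic feeding. Without passing the test over all genes, Sesn2 had a range difference of -0.86 ± 0.50 for arrhythmic against night-restricted feeding (edgeR adjusted p of the rhythm difference 0.097). Its fitted peaks were at ZT 9.3 under arrhythmic and ZT 2.6 under night-restricted feeding. In the same comparison Asns had -1.56 ± 1.2 (adjusted p = 0.118) and Nupr1 -1.47 ± 0.55 (adjusted p = 0.145).

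Set against ad libitum feeding, no rhythm difference was called in edgeR for any of the 9 genes. The count was 0 for incompletely adapted arrhythmic feeding (0 percent of all genes), 0 for arrhythmic feeding (0.0236 percent of all genes) and 0 for night-restricted feeding (0 percent of all genes), with 0 in DESeq2 in each. At an unadjusted p under 0.05 there were 2 of 9 genes in each, against 9.12, 9.05 and 8.72 percent of all genes in the same order. In all 3 those 2 genes were Atf5 and Trib3. Trib3 had a range difference of -1.53 ± 0.52 for arrhythmic against ad libitum feeding (adjusted p = 0.284), and in a fit of those 2 paradigms alone it passed (adjusted p = 0.0214). Between the 2 arrhythmic paradigms, incompletely adapted against arrhythmic, 0 of 9 genes differed (0 percent of all genes), with 0 at an unadjusted p under 0.05 and 0 in DESeq2. The largest range difference there was that of Asns at -1.12 ± 1.2, and the deeper counted Atf5 had 0.94 ± 0.43, so the data do not settle whether ranges differ there by about 1 log2 unit.

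The daily mean of several genes was lower under both arrhythmic paradigms than under night-restricted feeding. Every such call ended without the 5 libraries of extreme slope, with the values given further below. Under incompletely adapted arrhythmic feeding 4 of 9 genes were lower and 0 higher, against 18 percent of all genes called in either direction. Under arrhythmic feeding 3 of 9 were lower and 0 higher, against 6.92 percent of all genes. Trib3 averaged 9.48 ± 4.6 CPM (SD, n = 18) under incompletely adapted arrhythmic, 10.7 ± 4.9 under arrhythmic, 24.3 ± 24.5 under night-restricted and 14.01 ± 10 under ad libitum feeding. Its log2 fold change against night-restricted feeding was -0.97 ± 0.18 (SE) under incompletely adapted arrhythmic (edgeR adjusted p = 0.00036) and -0.80 ± 0.18 under arrhythmic feeding (edgeR adjusted p = 0.00549).

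Atf4 averaged 282 ± 44, 274 ± 59, 337 ± 96 and 308 ± 77 CPM (SD, n = 18 each) under incompletely adapted arrhythmic, arrhythmic, night-restricted and ad libitum feeding. Against night-restricted feeding it fell by 0.34 ± 0.097 on the log2 scale under incompletely adapted arrhythmic (adjusted p = 0.0129) and by 0.36 ± 0.097 under arrhythmic feeding (adjusted p = 0.0174). Ddit3 averaged 20.1 ± 6.1, 21.05 ± 6.9, 28.2 ± 10 and 24.6 ± 6.1 CPM in the same order, with log2 fold changes of -0.61 ± 0.16 (adjusted p = 0.00879) and -0.51 ± 0.16 (adjusted p = 0.0459) against night-restricted feeding. Nupr1 averaged 1.37 ± 0.45, 1.54 ± 0.51, 2.21 ± 1.2 and 2.29 ± 0.95 CPM, with a log2 fold change of -0.68 ± 0.20 for incompletely adapted arrhythmic feeding (adjusted p = 0.0136) and -0.48 ± 0.20 for arrhythmic feeding, which missed the threshold (adjusted p = 0.114) and passed without arrhythmic replicate 2 at ZT14 (-0.60, adjusted p = 0.0415). For arrhythmic against night-restricted feeding, the Ddit3 call ended in 21 of 36 fits that left out 1 library of the pair, 12 of them arrhythmic and 9 night-restricted, with the adjusted p reaching 0.151. The Atf4 call ended, just past the threshold, without night-restricted replicate 1 at ZT06 (adjusted p = 0.0537) or ZT22 (adjusted p = 0.0502), and in a fit of the 2 paradigms alone (adjusted p = 0.0519). The Ddit3 call also ended in that fit (adjusted p = 0.102), without the filter on low counts (adjusted p = 0.0878) and with time as a factor (adjusted p = 0.0519). The median log2 fold change of the 9 genes was -0.32 for incompletely adapted arrhythmic and -0.36 for arrhythmic feeding against night-restricted feeding, and 0.02 and 0.00 over all genes.

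These lower means moved with the GC slope, whose part in them was not tested beyond the alternatives that follow. The median slope was -0.0815 under incompletely adapted arrhythmic, -0.0172 under arrhythmic, 0.0346 under night-restricted and -0.0160 under ad libitum feeding. Without the 5 libraries of extreme slope, 4 of them night-restricted, all of these calls ended: 0 of 9 genes passed in both comparisons, with Trib3 at -0.60 (adjusted p = 0.0607) under incompletely adapted arrhythmic and -0.45 (adjusted p = 0.208) under arrhythmic feeding. Leaving out all 6 libraries of night-restricted replicate 1, which holds those 4, also ended every one of them, with Trib3 at -0.56 (adjusted p = 0.0725) under incompletely adapted arrhythmic and -0.39 (adjusted p = 0.268) under arrhythmic feeding. With the slope as a covariate, Trib3 stayed lower under incompletely adapted arrhythmic (adjusted p = 0.00565) while Atf4, Ddit3 and Nupr1 lost their calls there, and Atf4 and Trib3 stayed lower under arrhythmic feeding (adjusted p = 0.0438 and 0.0158) while Ddit3 did not (adjusted p = 0.202). The summed level of the 6 hepatocyte markers, all of which passed the filter, ran from 21412 to 29168 CPM under incompletely adapted arrhythmic, from 20214 to 31665 under arrhythmic, from 24403 to 37069 under night-restricted and from 21059 to 28830 under ad libitum feeding. Its part in the lower means was not tested, and in bulk liver fewer cells of a type and less RNA per cell cannot be told apart.

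**Figure D3:**
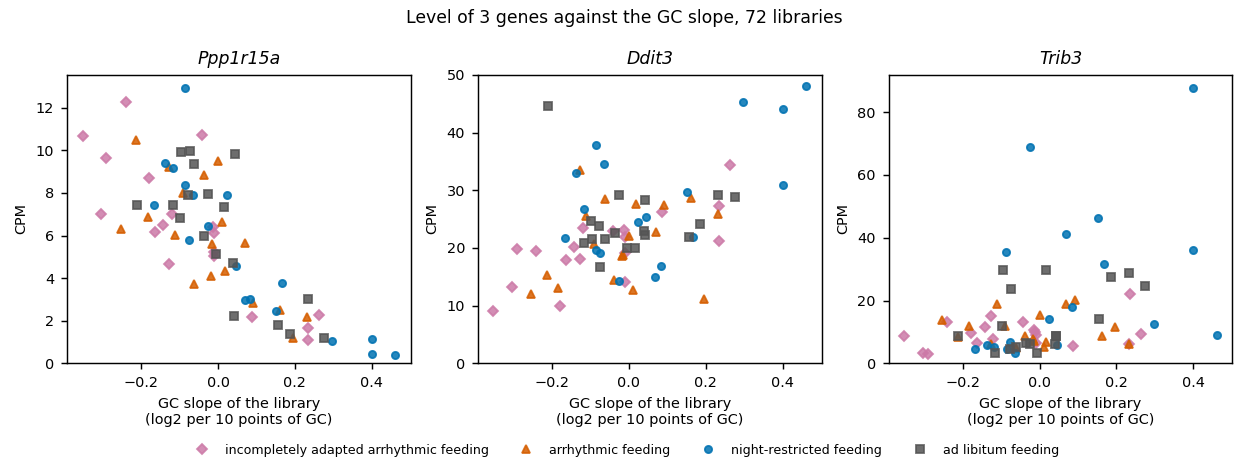
Level of Ppp1r15a, Ddit3 and Trib3 (CPM, linear axes that start at 0) against the GC slope (log2 per 10 points of GC), 1 point per library, 72 in each panel. Ppp1r15a falls across the whole range of slopes, the 4 night-restricted libraries of highest slope hold Ddit3 at 30.9 to 48.1 CPM with 1 ad libitum library of negative slope at 44.6, and in Trib3 the 2 highest night-restricted libraries, at 87.7 and 68.8 CPM, have slopes far apart.

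Compared with ad libitum feeding, the arrhythmic paradigms differed in the mean of none of the 9 genes after adjustment in edgeR. For incompletely adapted arrhythmic feeding 0 passed (0.134 percent of all genes), with 4 at an unadjusted p under 0.05, where 15.2 percent of all genes were, and 0 in DESeq2. For arrhythmic feeding 0 passed (2.1 percent of all genes), with 2 at an unadjusted p under 0.05, where 14 percent of all genes were, and 0 in DESeq2. Nupr1 was nearest, at -0.74 ± 0.19 under incompletely adapted arrhythmic feeding (adjusted p = 0.0686). It passed without incompletely adapted replicate 3 at ZT22 (-0.81, adjusted p = 0.0338) or ad libitum replicate 3 at ZT14 (-0.77, adjusted p = 0.0339). Asns had -1.20 ± 0.38 (adjusted p = 0.137) in the same comparison, with 0.912 ± 0.47 CPM under incompletely adapted arrhythmic, 1.22 ± 1.4 under arrhythmic, 1.45 ± 3.2 under night-restricted and 2.10 ± 1.9 under ad libitum feeding (SD, n = 18). Between incompletely adapted arrhythmic and arrhythmic feeding 0 of 9 means differed (0 percent of all genes), with 0 at an unadjusted p under 0.05 and 0 in DESeq2. For Atf4 the 95 percent interval of that log2 difference was -0.17 to 0.22, and for Trib3 it was -0.54 to 0.20.

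Under night-restricted feeding the mean of 1 of 9 genes differed from ad libitum feeding, Trib3, with 1.62 percent of all genes called. It was higher by 0.65 ± 0.18 on the log2 scale (edgeR adjusted p = 0.0451). That call ended in 17 of 36 fits that left out 1 library of these paradigms, most of all without night-restricted replicate 1 at ZT18 (0.46, adjusted p = 0.167), and without the 5 libraries of extreme slope (0.30, adjusted p = 0.499). Asns had -0.93 ± 0.39 (adjusted p = 0.193), and without the night-restricted library of 114 reads it passed, lower by -1.51 under night-restricted feeding (adjusted p = 0.00792). For Atf5, Asns, Chac1, Sesn2 and Ppp1r15a no mean level difference passed in any of the 6 pairs over all libraries. Atf5 averaged 580 ± 245, 606 ± 191, 746 ± 474 and 707 ± 346 CPM in the order of incompletely adapted arrhythmic, arrhythmic, night-restricted and ad libitum feeding.

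**Figure D4:**
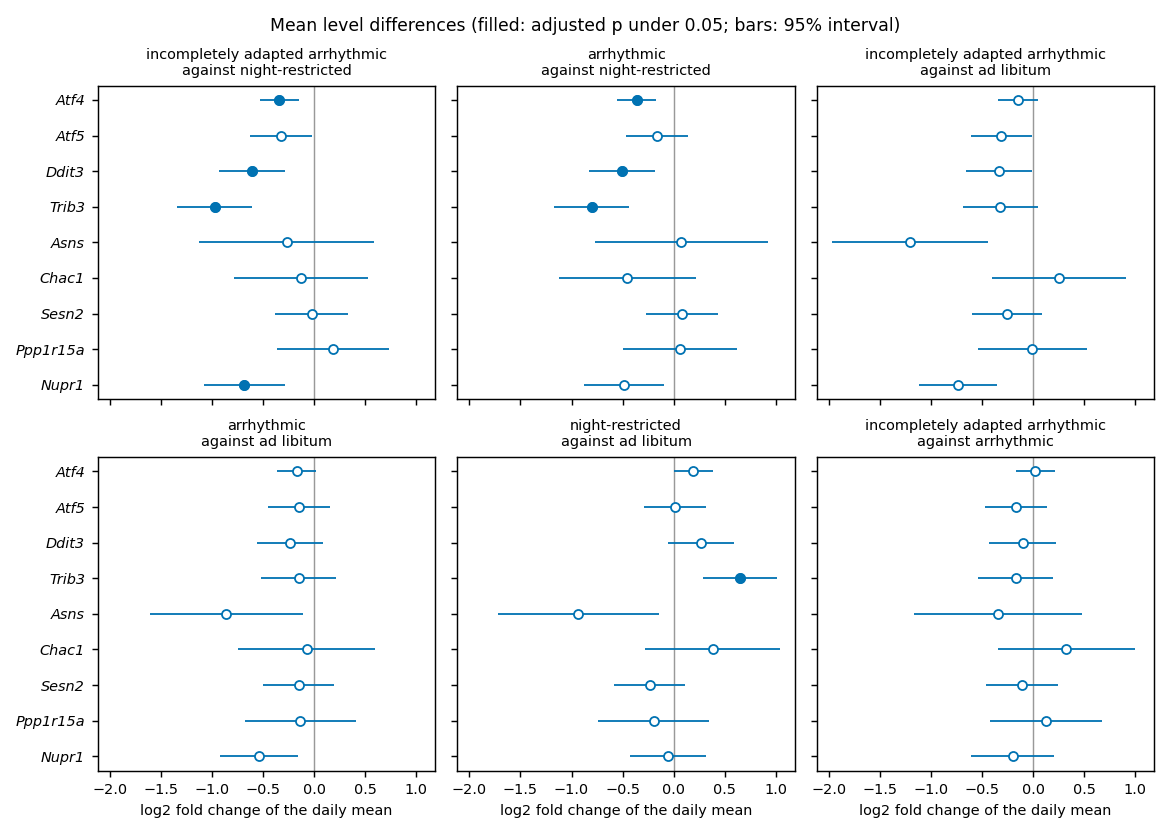
Log2 fold change of the daily mean of the 9 tested genes in the 6 pairs of paradigms, first named against second named. Points are estimates, bars are 95 percent intervals and filled points had an adjusted p under 0.05. The 4 and 3 filled points of the first 2 panels lie below 0, from -0.97 for Trib3 to -0.34 for Atf4, and Trib3 is the 1 filled point above 0, at 0.65 for night-restricted against ad libitum feeding. The calls of all filled points ended without the 5 libraries of extreme slope.

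Within the group, the genes did not share a single course. Over the 24 means of paradigm and time, the log2 levels of Atf4 and Atf5 had Pearson r = 0.82, Atf5 and Nupr1 0.76, Atf4 and Nupr1 0.72, Atf5 and Sesn2 0.68, and Trib3 and Chac1 0.65. Atf4 and Trib3 had r = 0.11, and Atf4 and Asns 0.20. Ppp1r15a was negative with every other member, down to -0.53 with Trib3. The points share libraries, depth and GC slope, so these values are descriptions. Outside the group, genes among the closest to each member over the same 24 means were Zbtb24, Zswim8 and Tfe3 for Atf4 (r from 0.89 to 0.90), Coq8a, Thra and Psmd4 for Atf5 (0.94 to 0.95), Rcl1 and Cirbp for Trib3 (0.96 and 0.92), Psmd7, Rassf1 and Actb for Nupr1 (0.88), and Ap3s2, Hnrnpul1 and Pgrmc2 for Sesn2 (0.80 to 0.84). Ddit3 was closest to Trim39, Spast and Bcl3 (0.82 to 0.86), and Ppp1r15a to Nup88, Adcy6 and Snx1 (0.90 to 0.92). The values were lower for Asns and Chac1: Asns was closest to Dennd4b, Ogfrl1 and Dgcr6 (0.65 to 0.74) and Chac1 to Gm44851, Gm20632 and Tcp11l2 (0.72 to 0.74).

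In lists of related genes that leave out the 10, most calls were again under night-restricted feeding, as over all genes tested, where 3.63 percent were rhythmic under incompletely adapted arrhythmic, 3.37 under arrhythmic, 29.9 under night-restricted and 7.48 under ad libitum feeding. Of 11 tested secreted and regulatory ATF4 targets, 2, 2, 8 and 6 were rhythmic under incompletely adapted arrhythmic, arrhythmic, night-restricted and ad libitum feeding. Gdf15, a stress hormone, had a range of 0.21 ± 0.38 under arrhythmic feeding, against 2.27 ± 0.38 under night-restricted feeding (edgeR adjusted p of the rhythm difference 0.0343), with 32.1 ± 12 and 48.0 ± 41 CPM (SD, n = 18) in those paradigms. Its call ended in 16 of 36 fits that left out 1 library of the pair. Map1lc3b, an autophagosome protein, had 0.53 ± 0.20 under arrhythmic feeding and 0.999 ± 0.20 under night-restricted feeding (adjusted p = 0.0404), a call that ended in 12 of those 36 fits. The fitted peak of Map1lc3b was at ZT 13.3 under arrhythmic and at ZT 7.4 under night-restricted feeding. The test of the rhythm difference covers range and peak time together. Of 11 amino acid enzymes and transporters, 1, 1, 5 and 2 were rhythmic in the same order of paradigms, and of 13 genes of tRNA charging 0, 0, 6 and 0. In Nars, asparaginyl-tRNA synthetase, the range was 0.39 ± 0.26 under arrhythmic feeding and 1.07 ± 0.26 under night-restricted feeding (adjusted p = 0.0337), lost in 10 of 36 such fits. The fitted peak of Nars was at ZT 11.2 under arrhythmic and at ZT 23.6 under night-restricted feeding. Without the 5 libraries of extreme slope the Nars call ended and the range difference was 0.0078 (adjusted p = 0.259). Gdf15 also ended without them (adjusted p = 0.0728), and Map1lc3b did not (adjusted p = 0.027). With time as a factor of 6 levels all 3 calls ended, with adjusted p of 0.384 for Map1lc3b, 0.176 for Gdf15 and 0.382 for Nars. Once the GC slope was a covariate those of Gdf15 (adjusted p = 0.0652) and Nars (adjusted p = 0.0554) ended too. Of 14 eIF2α kinases, phosphatase and eIF2B genes 0, 0, 4 and 1 were rhythmic, and none differed in rhythm between arrhythmic and night-restricted feeding.

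Among the lists, the parallel ER branches held the most rhythmic genes under night-restricted feeding. They also held the most rhythm differences between arrhythmic and night-restricted feeding. Of 18 genes of the IRE1 and ATF6 arms and ER chaperones, 2, 1, 14 and 1 were rhythmic under incompletely adapted arrhythmic, arrhythmic, night-restricted and ad libitum feeding, and 8 of 18 differed in rhythm between arrhythmic and night-restricted feeding, against 3.89 percent of all genes. Manf, a secreted ER stress factor, had a range of 0.72 ± 0.30 with a fitted peak at ZT 3.0 under arrhythmic feeding, against 1.85 ± 0.31 with a peak at ZT 18.1 under night-restricted feeding (edgeR adjusted p = 0.00216). Dnajb9, an ER co-chaperone, had 0.49 ± 0.32 peaking at ZT 5.5 under arrhythmic feeding, against 1.70 ± 0.32 peaking at ZT 14.5 under night-restricted feeding (adjusted p = 0.0128). Dnajb11, another ER co-chaperone, kept a like range, 0.44 ± 0.17 under arrhythmic and 0.66 ± 0.17 under night-restricted feeding, but with fitted peaks at ZT 7.2 and ZT 19.1 (adjusted p = 0.0102). The Manf call held with time as a factor of 6 levels (adjusted p = 0.0226), where those of Dnajb9 (0.0779) and Dnajb11 (0.115) ended, and Dnajb9 also ended once the GC slope was a covariate (adjusted p = 0.0535). The night-restricted peaks of these 3 genes fall in the night, when Trib3 under night-restricted feeding was near its lowest level. Of 8 mitochondrial stress genes 0, 0, 3 and 1 were rhythmic in the same order of paradigms, and the mean of Dele1, which relays mitochondrial stress to eIF2α, was lower under arrhythmic than under night-restricted feeding (-0.45 ± 0.14, adjusted p = 0.0386), a call that ended without the 5 libraries of extreme slope (adjusted p = 0.732). It also ended once the GC slope was a covariate (-0.20, adjusted p = 0.15) and in 18 of 36 fits that left out 1 library of the pair. Of 8 immediate early genes 0, 0, 4 and 1 were rhythmic, and of 8 p53 targets 1, 1, 2 and 1. The night-restricted counts of the eIF2α, mitochondrial and p53 lists, 4 of 14, 3 of 8 and 2 of 8, lie near the 29.9 percent of all genes. Trp53inp1 had a higher mean under arrhythmic than under night-restricted feeding (0.46 ± 0.13, adjusted p = 0.0206), which also ended without those libraries (adjusted p = 0.253).

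**Figure D5:**
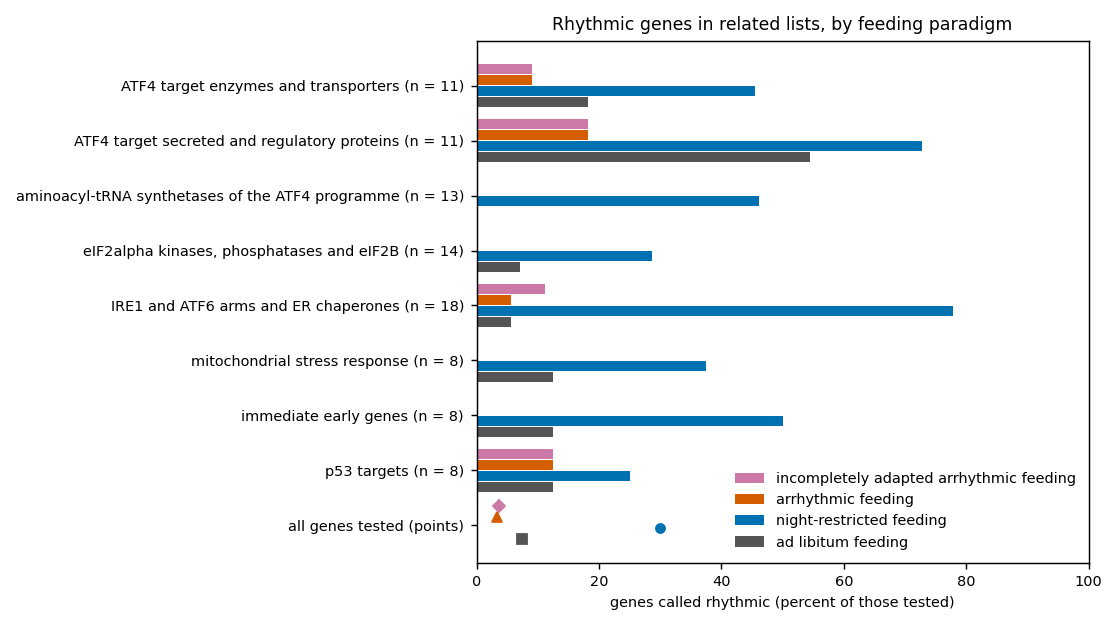
Percent of the tested genes of each list called rhythmic (false discovery rate 0.05) under each paradigm, with the number tested after the list's name. The lowest row gives the same percent over all genes tested, from 3.37 under arrhythmic to 29.9 under night-restricted feeding. The bars of night-restricted feeding are the longest in every list, with 14 of 18 in the IRE1 and ATF6 list.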

How the data were processed

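Liver RNA was extracted with TRIzol and sequenced with Lexogen QuantSeq 3′ libraries, per the labels' protocols. Alignment used STAR 2.4.2a, with mm10 and GRCm38.p5 named as builds, per the submitters' processing notes; the counting tool, its annotation and its strand setting are not stated there. The authors deposited raw read counts per Ensembl gene, and the CPM values given here were computed from those counts. A second deposited table of normalised values was not used, and 0 columns of the count table were left out. Counts were fitted with edgeR 4.0.16 in R 4.3.3 (filterByExpr over the 24 groups, TMM scaling, robust quasi-likelihood), over all 72 libraries, each paradigm having its own daily mean and its own cosine and sine terms of a 24 h period. Adjusted p-values are Benjamini-Hochberg over the 12712 genes tested, with a threshold of 0.05. Standard errors of ranges and peak times came from the delta method. DESeq2 1.42.0, DESeq2 size factors, no filter, the compared paradigms alone, time as a factor, a replicate block, a GC covariate and leaving out libraries were the alternatives. No 2 libraries of the same paradigm and time agreed within sampling noise, and other pairs were not compared in this way. The fit has no replicate block, and it treats the 18 libraries of a paradigm as separate samples. The 10 genes and the related lists were chosen with earlier results of these data known. Named list genes were those of smallest p past the threshold for arrhythmic against night-restricted feeding, at most 3 per list for rhythm and 2 for mean level. Floors for a count of 0 cover counting error only, as do all statements of depth. Promoter sequences are RefSeq's for GRCm38.p6, and positions are GENCODE M21's for GRCm38. Genes of most similar course were the 3 of highest correlation for each tested gene, of which 1 is not reported here.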

Additional observations from a re-analysis of the deposited data

Results flagged for a closer look

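The course over the day differed between paradigms by the direct test in 3 cases. For Atf5 the fitted range under arrhythmic feeding minus that under night-restricted feeding was -1.99 on the log2 scale (edgeR adjusted p = 0.00935), with fitted ranges of 0.73 under arrhythmic and 2.72 under night-restricted feeding. For Trib3 the same difference was -2.20 (edgeR adjusted p = 0.0162), with 1.42 under arrhythmic and 3.62 under night-restricted feeding. For Trib3 the range under incompletely adapted arrhythmic feeding minus that under night-restricted feeding was -2.35 (edgeR adjusted p = 0.0205), with 1.27 and 3.62. The night-restricted libraries are common to all 3 cases.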

How the results depend on the processing

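Counts below are of the 9 tested genes. Rhythmic genes under arrhythmic feeding, 1 in the report, were 0 with no filter and with time as a factor and 2 with the GC covariate. Under night-restricted feeding, 7 in the report, they were 5 in the fit of that paradigm alone and 8 with the GC covariate. Under ad libitum feeding, 3 in the report, they were 2 with time as a factor. Under incompletely adapted arrhythmic feeding, 1 in the report, they were 2 with DESeq2, with a replicate block nested in paradigm, with the GC covariate and without the 5 libraries of extreme GC slope. Rhythm differences for arrhythmic against night-restricted feeding fell to 1, and for incompletely adapted arrhythmic against night-restricted feeding to 0, both with the compared paradigms alone and with time as a factor. With the replicate block nested in paradigm, arrhythmic against night-restricted feeding gave 3. For arrhythmic against ad libitum feeding the compared paradigms alone gave 1. Mean level differences for arrhythmic against night-restricted feeding, 3 in the report, were 1 with the compared paradigms alone and 0 without the 5 libraries. They were 2 with no filter, time as a factor, the replicate block and the GC covariate. For incompletely adapted arrhythmic against night-restricted feeding they were 1 with the GC covariate and 0 without the 5 libraries. For night-restricted against ad libitum feeding they were 0 with no filter, the compared paradigms alone, time as a factor, the replicate block, the GC covariate and without the 5 libraries. Over all genes, without those 5 libraries the mean level calls were 94, against 880 in the report's fit, for arrhythmic and 143, against 2290, for incompletely adapted arrhythmic against night-restricted feeding. Time as a factor gave 52 rhythm differences, against 495, and 7, against 78, for the same pairs.

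Leaving out all libraries of 1 replicate number in 1 paradigm gave these ranges. Rhythmic genes were 0 to 2 under incompletely adapted arrhythmic, 0 to 1 under arrhythmic, 3 to 7 under night-restricted and 2 to 3 under ad libitum feeding. Rhythm differences were 0 to 1 for incompletely adapted arrhythmic and 0 to 2 for arrhythmic against night-restricted feeding, and 0 in the other pairs. Mean level differences were 0 to 5 for incompletely adapted arrhythmic and 0 to 4 for arrhythmic against night-restricted feeding, 0 to 3 for incompletely adapted arrhythmic against ad libitum and 0 to 2 for night-restricted against ad libitum feeding. With single libraries left out, the rhythmic genes were 6 to 7 under night-restricted and 3 to 4 under ad libitum feeding.

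Among single genes, a called or gained difference changed sign in 2 fits. The Nars range difference for arrhythmic against night-restricted feeding was 0.0078 without the 5 libraries, and that of Ppp1r15a was -0.094 (adjusted p = 0.0483) with the replicate block nested in paradigm, against 0.02 without it. Deviations of same-numbered libraries from their group means correlated with a median r of -0.0061 between paradigms (39.0 percent of 648 pairs over 0.1), so the numbers do not pair the paradigms. Within a paradigm, across times, the median r was 0.265 (72.2 percent of 180 pairs over 0.1), against -0.035 for other numbers of any other group. Libraries of 1 number in a paradigm thus deviate together, and p-values for mean levels, which take them as independent, may be too small. The causes of the sign changes were not tested. Genes with few reads, Asns, Nupr1, Chac1 and Atf3, are limited by depth.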
